A study of Mus musculus with 2 samples.

Results

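The 47 genes described here are mouse members of the nuclear receptor superfamily. They were chosen by name and not by a rule on measured values, though with earlier results of these data known. They were looked up by Ensembl identifier among the 43346 Ensembl genes of the deposited gene tables. All 47 were found. The tissue was the adrenal gland of a C57BL/6J female mouse, adult, aged 10 weeks, with no treatment or engineered allele named in the labels. Polyadenylated RNA was sequenced as 2 libraries, technical replicates of 1 biological sample, with the second added later. Replicate 2 is set against replicate 1 throughout, library and date cannot be told apart, and the spread given here is technical, with no measure of how animals differ.

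Nuclear receptors are transcription factors that carry a DNA-binding domain of paired zinc fingers and, in most members, a pocket that binds a small lipophilic ligand such as a steroid, thyroid hormone, retinoid, oxysterol or fatty acid. Ligand binding exchanges corepressors for coactivators at the genes to which the receptor is bound, and many members bind DNA as pairs with a retinoid X receptor. Members without a known physiological ligand are called orphans. In the adrenal gland the family is known above all for Nr5a1 (steroidogenic factor 1, SF-1), which is required for the gland to form and which activates the genes of steroid synthesis, and for Nr0b1 (DAX-1), its repressor.

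Replicate 2 held 17376660 expected counts and replicate 1 held 28267651, rounded per gene. Genes of the mitochondrial genome and their nuclear copies took 15.31% of the counts in replicate 2 and 53.09% in replicate 1, which left 14716667 counts on other genes in replicate 2 and 13260900 in replicate 1. TPM (a level per transcript, corrected for transcript length and scaled to a fixed sum) was therefore rescaled over those other genes, and every TPM below is on that scale. The summed TPM of 5 cortex marker genes was 56708.53 in replicate 2 and 40317.04 in replicate 1, and that of 5 medulla markers was 7288.38 in replicate 2 and 1939.9 in replicate 1. All 5 cortex markers and 4 of the 5 medulla markers reached 1 TPM in both libraries, Pnmt having 4291 counts in replicate 2 and 0 in replicate 1. All 6 adipocyte markers reached 1 TPM in both libraries, with sums of 3913.92 in replicate 2 and 2646.73 in replicate 1. Summed TPM in replicate 2 against replicate 1 was 528.19 against 545.11 for 5 endothelial markers, 459.24 against 753.65 for 6 stromal markers and 226.76 against 24.81 for 5 macrophage markers. Most of the macrophage sum in replicate 2 was C1qa (88.71 TPM) and C1qb (85.42 TPM), with 5.66 and 3.26 TPM in replicate 1. Of the 5 macrophage markers only Adgre1 was lower in replicate 2, at 7.53 against 9.37 TPM. All these sums are uncorrected for the trend of library ratios with GC content described below. By the call limits given there, 4 macrophage markers were higher, and 1 was once that trend was removed. Of the 5 medulla markers 4 were higher before the removal, and after it 3 were higher and 1, Chgb, lower. Of all tested genes 36.5% were higher before the removal and 13.5% after it. The kidney markers Umod, Slc34a1 and Miox had 0 counts in both libraries, and the 5 liver markers summed to 471.33 TPM in replicate 2 and 634.17 TPM in replicate 1. Nearly all of the liver sum was Cyp2e1, with 464.13 TPM in replicate 2 and 632.12 TPM in replicate 1, while Alb had 1.61 TPM in replicate 2 and 1.09 TPM in replicate 1.

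The feature that names the family was read from the annotated coding sequences of the GENCODE M21 transcripts (GRCm38, the assembly also called mm10). A first zinc finger with its 4 zinc-binding cysteines, spaced as CxxC, 13 residues and CxxC, was found in 45 of the 47 genes. The exceptions were Nr0b1 and Nr0b2 (SHP), atypical members known to lack the DNA-binding domain. The 63 coding bases of that finger are shown for 3 pairs of close relatives whose levels are set against each other below, because each pair encodes the same or nearly the same finger in different bases. Capitals mark the 4 cysteine codons.
Nr5a1: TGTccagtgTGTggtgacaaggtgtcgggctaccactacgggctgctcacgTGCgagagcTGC
Nr5a2: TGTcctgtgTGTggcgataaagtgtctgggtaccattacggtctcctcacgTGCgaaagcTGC
Nr4a1: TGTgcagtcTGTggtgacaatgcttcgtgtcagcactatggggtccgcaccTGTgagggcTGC
Nr4a3: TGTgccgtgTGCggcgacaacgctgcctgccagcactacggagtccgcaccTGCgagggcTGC
Nr2f2: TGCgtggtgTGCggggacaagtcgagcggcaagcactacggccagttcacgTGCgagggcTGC
Nr2f1: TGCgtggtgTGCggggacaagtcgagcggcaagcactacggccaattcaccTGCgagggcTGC

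These stretches lie in single coding exons at chr2:38710659-38710721 (Nr5a1, minus strand), chr1:136944962-136945024 (Nr5a2, minus), chr15:101270892-101270954 (Nr4a1, plus), chr4:48052124-48052186 (Nr4a3, plus), chr7:70360033-70360095 (Nr2f2, minus) and chr13:78198265-78198327 (Nr2f1, minus). Nr5a1 and Nr5a2 differed at 10 bases, all at the third codon position, and encoded the same residues. The GC content of the stretch was 61.9% in Nr5a1 and 54.0% in Nr5a2. Nr4a1 and Nr4a3 differed at 11 bases and 1 residue, and here Nr4a3 was the richer in GC, at 69.8% against 58.7% in Nr4a1. Nr2f2 and Nr2f1 differed at 2 bases and no residue. Over whole transcripts the picture changed for some of them, since untranslated sequence entered: the coding sequence of Nr2f2 was 62.1% GC and its annotated transcripts averaged 47.12%, and Nr4a3 had 57.9% in the coding sequence and 49.48% over its transcripts.

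Of the 47 genes, 30 were detected, meaning at least 1 TPM in both libraries. In replicate 2 alone 36 genes reached that level, and in replicate 1 alone 31 did. The genes above 1 TPM only in replicate 2 were Nr1h3, Ppard, Rxrb, Rxrg, Esrra and Nr0b2, and Pgr was above it only in replicate 1. A further 10 genes were below 1 TPM in both libraries, and 9 of these had at most 4 counts in each. These 9 were the xenobiotic receptors Nr1i2 (PXR) and Nr1i3 (CAR), the bile acid receptor relative Nr1h5, the liver and intestine receptors Hnf4a and Hnf4g, the neural and photoreceptor orphans Nr2e1 and Nr2e3, Esr2 (estrogen receptor beta) and Esrrb. Nr1i2, Nr2e1, Nr2e3 and Hnf4a had 0 counts in both libraries, and the 95% exact interval of a count of 0 reaches 3.69 counts.

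The family's summed level was 2012.5 TPM in replicate 2 and 1047.6 TPM in replicate 1, from 43964 counts in replicate 2 and 29565 in replicate 1, which was 0.2987% of the counts on nuclear genes in replicate 2 and 0.2229% in replicate 1. The order of the genes differed between the libraries. Replicate 2 was led by Nr5a1, Nr4a1 and Nr1d1, and replicate 1 by Nr2f2, Nr1d2 and Rora. Of the 10 highest genes of each library, 3 were shared: Nr5a1, Nr2f2 and Rora. Over the 30 detected genes the Spearman correlation of the levels in the 2 libraries was 0.373, a description across genes that come from the same sample.

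**Figure D1:**
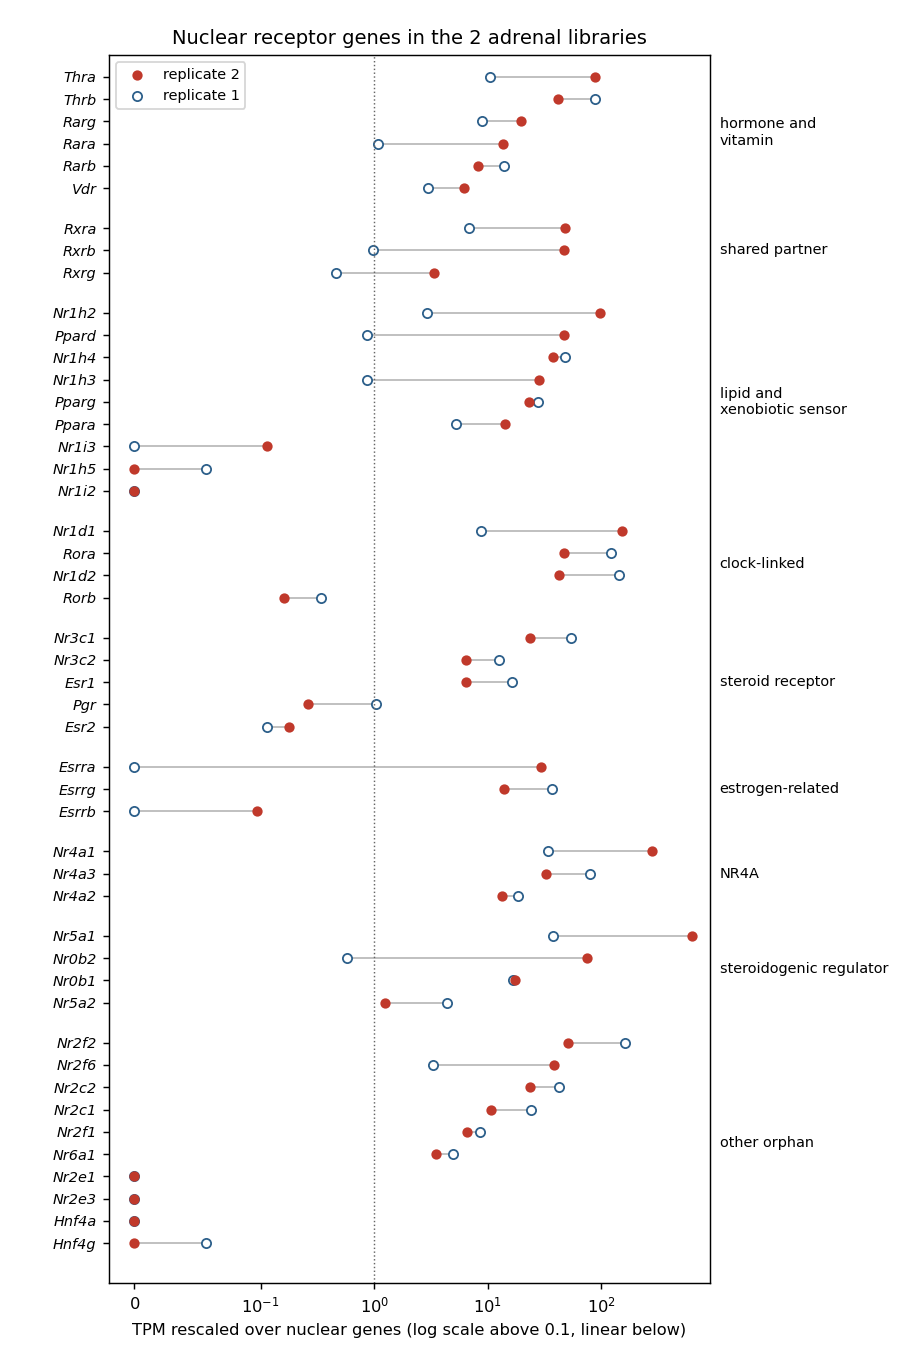
Level of each of the 47 nuclear receptor genes in replicate 2 (filled red circles) and replicate 1 (open blue circles), in TPM rescaled over nuclear genes, on an axis that is logarithmic above 0.1 and linear below; the dotted line marks 1 TPM, and genes are grouped by role. Nr5a1 lies at 621 TPM in replicate 2 and at 37.8 TPM in replicate 1, whereas Nr0b1 and Pparg lie close together.

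The libraries were compared gene by gene with an exact binomial test on counts, scaled by TMM (a trimmed mean of the genes' ratios) and adjusted over the 14358 genes with at least 20 counts in sum. A gene was called at an adjusted p under 0.05 and a fold of at least 2. Of the 38 family members tested, 15 were higher in replicate 2 (39.47%) and 12 were lower (31.58%), against 36.5% higher and 27.8% lower among all tested genes. Scaled to the total count over nuclear genes instead, 17 were higher and 8 were lower. The share of called members was thus near the background and says nothing particular about the family. The median log2 ratio of replicate 2 over replicate 1 was -0.26 over the members and 0.103 over all tested genes, whose SD was 2.388. The test compares 2 libraries of the same biological sample, not conditions, and in bulk RNA fewer cells of a type and less RNA per cell cannot be told apart.

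The ratio of a member moved with the GC content of its transcripts. The Spearman correlation of mean transcript GC with the log2 ratio was 0.823 over the 38 tested members and 0.884 over 14274 genes, as a description across genes of the same pair of libraries. Of the 15 members at 55% GC or more, 14 were called higher in replicate 2 and 0 lower, and their median log2 ratio was 4.11. Among all tested genes of that GC range, 91.3% were higher. Of the 10 members under 47% GC, none was higher and 6 were lower, with a median log2 ratio of -1.16, and 71.3% of all tested genes in that range were lower. In the 13 members between these limits 1 was higher and 6 were lower, where 36.1% of all genes were higher and 7.77% were lower.

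**Figure D2:**
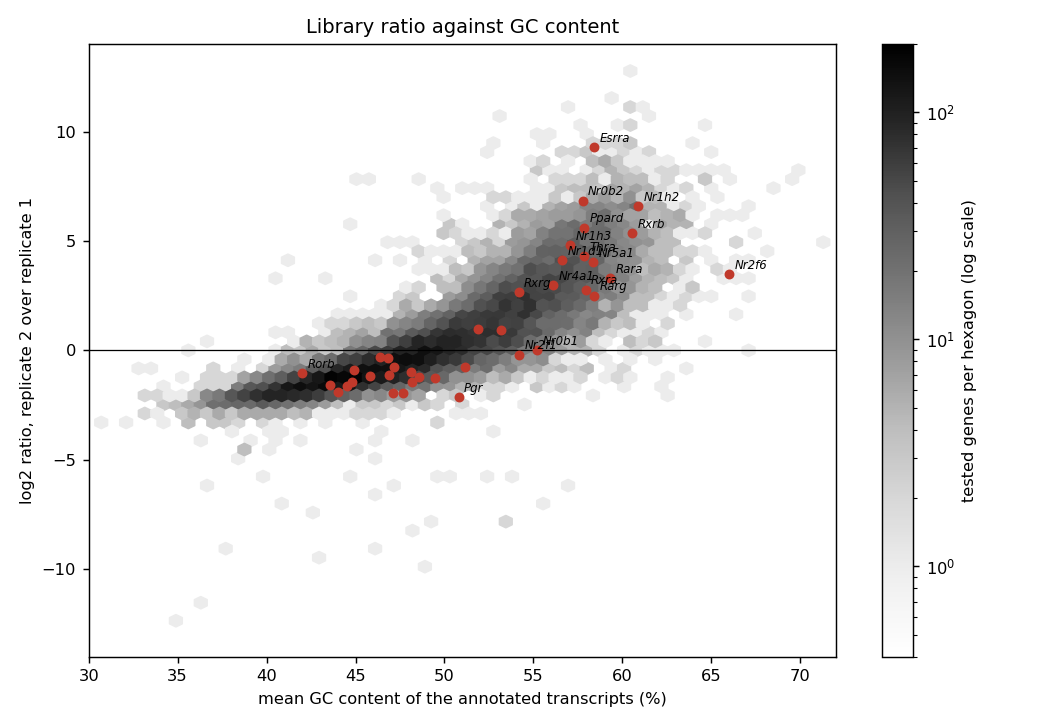
Log2 ratio of replicate 2 over replicate 1 (vertical axis) against the mean GC content of the annotated transcripts in percent (horizontal axis), for the 38 tested nuclear receptor genes (red points) over all 14274 tested genes with a GC value (grey hexagons, shaded by number of genes on a log scale). The receptors follow the direction of the slope of all genes, and 14 of the 15 at 55% GC or more were higher in replicate 2. Between 47% and 55% GC the 13 receptors lay lower, with a median log2 ratio of -0.98 against 0.49 for all tested genes.

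The Spearman correlation of TPM between the libraries was 0.964 over the 10 members under 47% GC, 0.841 over the 13 between 47% and 55%, and 0.374 over the 15 at 55% or more. The order of levels was thus closely shared among the AT-rich members and not among the GC-rich ones. A GC trend fitted over all tested genes was removed from the log2 ratios as an alternative, which left 5 members higher and 13 lower, against 13.5% higher and 12.8% lower of all tested genes. Of the 15 members called higher, 5 remained so, 6 lost the call and Rara, Rarg, Rxra and Nr2f6 turned to lower. Of the 12 called lower, 6 remained so. Nr0b1, Nr2f1 and Rarb were called lower after the removal but not before it. In 3 versions of the correction (mean transcript GC, GC weighted by deposited transcript abundance, and GC with length), Esrra, Nr0b2, Nr1h2, Nr1h3 and Ppard were higher each time, and Rarg, Pgr, Nr0b1, Nr2f1, Nr2f2 and Nr2f6 were lower each time. What sets the trend was not tested.

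**Figure D3:**
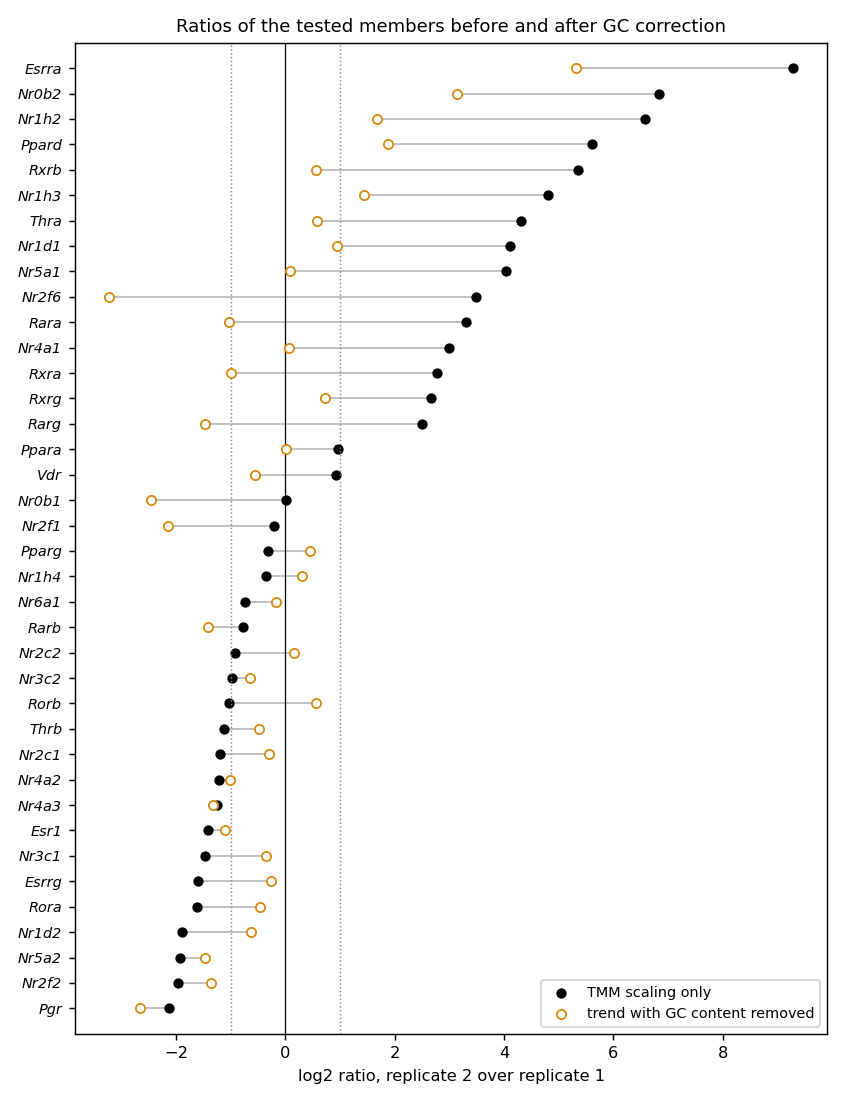
Log2 ratio of replicate 2 over replicate 1 for each of the 38 tested genes with TMM scaling only (black points) and after removal of the trend with mean transcript GC (open orange points); dotted lines mark a fold of 2 in either direction. Nr5a1 moves to 0.08 and Nr4a1 to 0.07 after the removal, while Nr0b2 stays at 3.14 and Nr2f6 crosses to -3.23.

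The regulators of steroid synthesis took 35.48% of the family's TPM in replicate 2 and 5.68% in replicate 1. Nr5a1 (chromosome 2, 38692656 to 38714542, minus strand) had 13138 counts and 621 TPM in replicate 2, and 596 counts and 37.8 TPM in replicate 1. It ranked 1 in the family and 226 among nuclear genes in replicate 2, but 9 and 4329 in replicate 1. The libraries therefore placed the gland's defining receptor far apart: it was 16.3-fold higher in replicate 2 (95% exact interval 15.0 to 17.7), its mean was 329 ± 413 TPM (SD, n = 2 technical replicates), and its log2 ratio was 0.08 once the GC trend was removed.

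Nr5a2 (LRH-1), the relative of Nr5a1 known from liver and ovary, had 1.23 TPM in replicate 2 and 4.34 TPM in replicate 1. Nr5a1 exceeded it 504-fold in replicate 2 and 8.70-fold in replicate 1, so the direction held and the size did not. Nr0b1, on the X chromosome (86191764 to 86195947, plus strand), had 215 counts and 17.3 TPM in replicate 2 and 158 counts and 16.8 TPM in replicate 1. At 17.04 ± 0.334 TPM (SD, n = 2) its levels lay closer together than those of the other regulators of steroid synthesis, with a log2 ratio of 0.01 (-0.05 with DESeq2 size factors). Its transcripts are 55.2% GC, and after removal of the GC trend its log2 ratio was -2.45, called lower. The ratio of the activator Nr5a1 to the repressor Nr0b1 was 36.0 in replicate 2 and 2.25 in replicate 1.

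Nr0b2, which represses other receptors and is best known in bile acid feedback in the liver, had 539 counts and 74.4 TPM in replicate 2, and 3 counts and 0.572 TPM in replicate 1. Its ratio without a prior count was 133 (95% exact interval 45.3 to 647). It stood 6th of the family in replicate 2 and 35th in replicate 1. Removal of the GC trend left it higher, at 3.14 on the log2 scale.

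The NR4A receptors are orphans encoded by immediate early genes, and Nr4a1 (Nur77) is known to respond to ACTH in the adrenal cortex. All 3 were detected. Nr4a1 (chromosome 15, 101254269 to 101274795, plus strand) had 277 TPM in replicate 2 and 34.2 TPM in replicate 1, a 7.92-fold difference (95% exact interval 7.2 to 8.74). Nr4a3 (Nor1) went the other way, with 32.3 TPM in replicate 2 and 79.1 TPM in replicate 1. Nr4a2 (Nurr1) had 13.3 TPM in replicate 2 and 18.5 TPM in replicate 1. Of its level in replicate 2, 39.74% rested on 1 count of a 182-base transcript. Nr4a3 and Nr4a2 were both called lower, at log2 ratios of -1.24 and -1.22. Neither was called with nuclear totals (-0.96 and -0.94) or with the weighted GC trend removed (-0.45 and -0.99). Nr4a1 led the trio in replicate 2, exceeding Nr4a3 8.57-fold, and Nr4a3 led it in replicate 1, where the ratio was 0.432. With the GC trend removed Nr4a1 was at 0.07 and Nr4a3 at -1.32.

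The clock-linked receptors act on shared DNA sites: Nr1d1 and Nr1d2 (REV-ERB alpha and beta) repress and the ROR receptors activate the clock gene Bmal1. Nr1d1 (chromosome 11, 98767932 to 98775333, minus strand) had 151 TPM in replicate 2 and 8.69 TPM in replicate 1, 17.3-fold higher (95% exact interval 14.4 to 21). Nr1d2 had 42.7 TPM in replicate 2 and 144 TPM in replicate 1, and was called lower at a log2 ratio of -1.89. Which REV-ERB gene was the more abundant thus depended on the library: the ratio of Nr1d1 to Nr1d2 was 3.54 in replicate 2 and 0.0605 in replicate 1. Their transcripts average 56.6% and 44.0% GC. Neither was called after removal of the GC trend, at log2 ratios of 0.94 and -0.63.

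Rora was among the 10 highest members of each library, ranking 9 in replicate 2 and 3 in replicate 1, with 47.2 TPM in replicate 2 and 121 TPM in replicate 1. It was called lower, at -1.62, and was at -0.46 after removal of the GC trend. Rorb had 11 counts in replicate 2 and 17 in replicate 1, below 1 TPM in both, so that Rora exceeded it 291-fold in replicate 2 and 353-fold in replicate 1. Nr1d2 and Rora, both near 44% GC, stood in similar proportion to each other in the libraries, 0.905 in replicate 2 and 1.19 in replicate 1.

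Among the classical steroid receptors, Nr3c1, the glucocorticoid receptor, was the highest in both libraries. It had 23.4 TPM in replicate 2 and 53.9 TPM in replicate 1 (38.7 ± 21.5 TPM, SD, n = 2). Nr3c2, the mineralocorticoid receptor, had 6.46 TPM in replicate 2 and 12.6 TPM in replicate 1. The glucocorticoid receptor therefore exceeded the mineralocorticoid receptor in both libraries and by similar factors, 3.63 in replicate 2 and 4.29 in replicate 1. Esr1, estrogen receptor alpha, had 6.44 TPM in replicate 2 and 16.4 TPM in replicate 1.

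Pgr, the progesterone receptor, was near the limit of detection with 12 counts in replicate 2 and 40 in replicate 1. Nr3c1, Esr1 and Pgr were called lower, at log2 ratios of -1.47, -1.42 and -2.13, and Nr3c2 at -0.98 just missed the fold limit. None of the 4 tested steroid receptors was called higher in replicate 2, where 36.5% of all tested genes were higher and 27.8% lower. Their transcripts average from 44.8% GC (Nr3c1) to 50.8% (Pgr). Of all tested genes, 71.3% were lower under 47% GC and 7.77% between 47% and 55%. With the GC trend removed Esr1 at -1.10 and Pgr at -2.66 kept the call and Nr3c1 at -0.36 did not. Esr1 lost it in the other corrections, at -0.47 with weighted GC and -0.82 with GC and length.

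Receptors for thyroid hormone, retinoic acid and vitamin D were all detected. Thra (chromosome 11, 98740638 to 98769006, plus strand) had 1432 counts and 87.6 TPM in replicate 2, and 53 counts and 10.46 TPM in replicate 1. Thrb had 41.2 TPM in replicate 2 and 87.0 TPM in replicate 1. The gene with the higher TPM differed by library: Thrb stood to Thra at 0.471 in replicate 2 and at 8.32 in replicate 1. In replicate 2, 63.83% of the Thra level was Thra-201, which encodes a form that does not bind hormone. In replicate 1, 66.60% was the 535-base entry Thra-208, from 14 counts. These ratios therefore do not compare the hormone-binding forms. Thra was 20.01-fold higher in replicate 2 without a prior count (95% exact interval 15.2 to 26.8), and its log2 ratio was 0.58 after removal of the GC trend. Thra and Nr1d1 lie on opposite strands and share 263 annotated exon bases, 5.7% of the exon bases of Thra and 8.5% of those of Nr1d1. Whether the counting used strand is not given in the sources used here, so a part of their reads may be exchanged.

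The retinoic acid receptors Rara and Rarg were higher in replicate 2 before the GC correction. Rara had 13.7 TPM in replicate 2 and 1.09 TPM in replicate 1, and Rarg had 19.4 TPM in replicate 2 and 8.98 TPM in replicate 1. In counts, Rarg had 378 in replicate 2 and 49 in replicate 1. Its TPM in replicate 1 was 89.13% the 934-base entry Rarg-205, which had 0 counts in replicate 2. Rarb had 8.27 TPM in replicate 2 and 13.8 TPM in replicate 1 and was not called. Rarb shares 34.1% of its exon bases with Top2b on the opposite strand, which had 2622 counts in replicate 2 and 9181 in replicate 1, so the Rarb value is uncertain. Vdr, the vitamin D receptor, had 6.20 TPM in replicate 2 and 2.97 TPM in replicate 1, below the fold limit at a log2 ratio of 0.92.

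The retinoid X receptors, the partners that most of the hormone and lipid receptors bind DNA with, were all called higher in replicate 2. Rxra had 47.5 TPM in replicate 2 and 6.802 TPM in replicate 1, Rxrb had 46.8 TPM in replicate 2 and 0.972 TPM in replicate 1, and Rxrg had 3.38 TPM in replicate 2 and 0.457 TPM in replicate 1. Rxra and Rxrb were level in replicate 2, at a ratio of 1.02, and 7-fold apart in replicate 1, where Rxrb rested on 12 counts. Rxrg, known from muscle and brain, was 14.1-fold below Rxra in replicate 2 and 14.9-fold below it in replicate 1, where it rested on 4 counts (95% exact interval 1.09 to 10.24). The RXR genes made up 4.85% of the family's TPM in replicate 2 and 0.79% in replicate 1. None of them was higher after removal of the GC trend, and Rxra, at -1.0, was called lower.

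**Figure D4:**
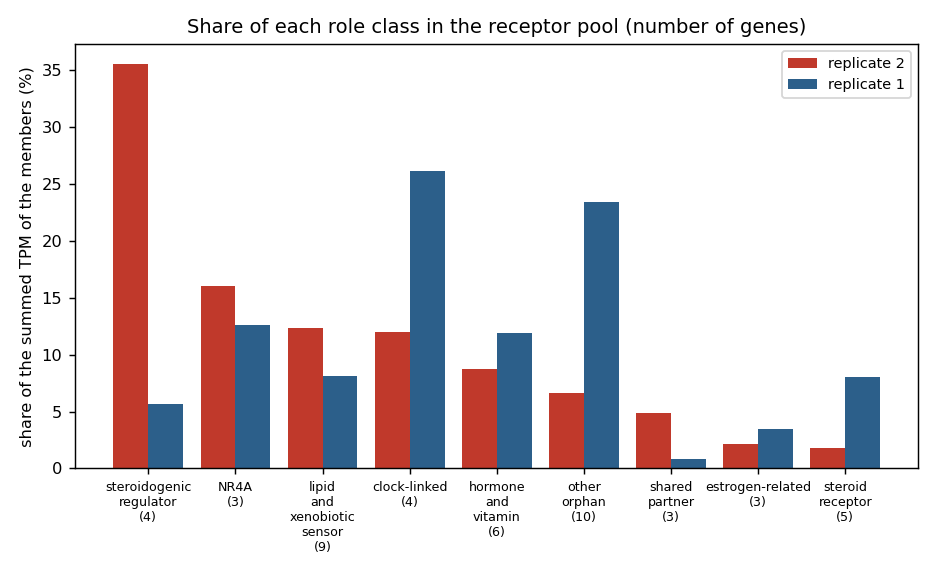
Share of each role class in the summed TPM of the 47 genes, in percent, in replicate 2 (red bars) and replicate 1 (blue bars), with the number of genes in brackets. Regulators of steroid synthesis held 35.48% in replicate 2 and 5.68% in replicate 1, whereas clock-linked receptors held 11.98% in replicate 2 and 26.11% in replicate 1, and other orphans 6.65% in replicate 2 and 23.35% in replicate 1.

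Of the 9 sensors of lipids and xenobiotics, 4 were detected in both libraries. Nr1h2 (LXR beta) and Nr1h3 (LXR alpha) bind oxysterols and control cholesterol export. Nr1h2 had 1232 counts and 98.0 TPM in replicate 2, and 9 counts and 2.92 TPM in replicate 1. Nr1h3 had 321 counts and 28.1 TPM in replicate 2, and 8 counts and 0.857 TPM in replicate 1. In TPM, Nr1h2 was ahead of Nr1h3 by 3.49 in replicate 2 and by 3.40 in replicate 1, but few reads stand behind the second value. In replicate 1 the 544-base entry Nr1h2-212 held 82.48% of the Nr1h2 TPM from 5 counts. The other 17.52% was the retained-intron entry Nr1h2-208, from 4 counts. The counts of the 2 genes, 9 and 8, were nearly equal there, so the proportion in replicate 1 is uncertain. Nr1h2 and Nr1h3 were both higher in replicate 2 in each version of the GC correction, at log2 ratios of 1.68 and 1.43 in the first.

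Nr1h4 (FXR), the bile acid receptor, and Pparg, the receptor of fat cell formation, were the sensors whose libraries lay closest. Nr1h4 had 526 counts and 37.7 TPM in replicate 2 and 499 counts and 47.4 TPM in replicate 1, with a mean of 42.5 ± 6.85 TPM (SD, n = 2). It was the highest sensor in replicate 1 and the third highest in replicate 2. Pparg had 22.9 TPM in replicate 2 and 27.5 TPM in replicate 1, and was not called. Of the 6 fat cell markers 2 were called higher in replicate 2 and none lower, against 36.5% higher and 27.8% lower of all tested genes. Those called were Plin1 (2631 counts in replicate 2 and 19 in replicate 1) and Cidec (3392 in replicate 2 and 135 in replicate 1). Adipoq had 342.43 TPM in replicate 2 and 315.54 TPM in replicate 1. After removal of the GC trend 4 of the 6 were higher and none lower, against 13.5% and 12.8% of all tested genes. The part of fat cell RNA in the Pparg level was not tested. Ppara, which drives fatty acid oxidation, had 14.1 TPM in replicate 2 and 5.26 TPM in replicate 1 and was not called. Ppard had 1020 counts in replicate 2 and 15 in replicate 1, and stood to Ppara at 3.29 in replicate 2 and 0.163 in replicate 1.

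The estrogen-related receptors are orphans that control genes of mitochondrial energy production. Esrra had 422 counts and 29.3 TPM in replicate 2 and 0 counts in replicate 1. With TMM scaling and a floor of 3 counts in replicate 1 this is at least 104-fold higher in replicate 2, taking the replicate 2 count as exact. The 95% exact lower limit of the ratio, which allows for error in both counts, was 84.3. Esrrg had 13.97 TPM in replicate 2 and 36.6 TPM in replicate 1 and was called lower, at a log2 ratio of -1.60. Esrrb also had 0 counts in replicate 1, so Esrrg was the only estrogen-related receptor with counts there, and Esrra was the higher of the pair in replicate 2, with Esrrg at 0.478 of its level. Esrra was still called higher after removal of the GC trend, and Esrrg, at -0.27, was not called.

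Among the other orphans, Nr2f2 (COUP-TFII), a receptor of veins and mesenchyme, was the highest family member in replicate 1. It lies on chromosome 7 (70351944 to 70366735, minus strand) and had 1186 counts and 51.3 TPM in replicate 2, and 3410 counts and 162 TPM in replicate 1. It was called lower at a log2 ratio of -1.96, and still at -1.37 after removal of the GC trend. Before the GC correction, of 6 stromal markers Col1a1 was called higher and Lum lower, and of 5 endothelial markers 3 were called higher and Emcn lower. Among all tested genes 36.5% were higher and 27.8% lower. After removal of the GC trend Col1a2 was called higher at 1.3 and Col1a1 lower at -1.69, and 0 endothelial markers were called in either direction. The shares of all tested genes were then 13.5% higher and 12.8% lower. Nr2f1, with nearly the same finger sequence, had 6.51 TPM in replicate 2 and 8.46 TPM in replicate 1. Nr2f2 exceeded it 7.89-fold in replicate 2 and 19.1-fold in replicate 1.

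Nr2f6 (EAR2) had 38.6 TPM in replicate 2 and 3.32 TPM in replicate 1. At 66.0% GC it was the most GC-rich tested member, only 20 tested genes lay within 1 point of it, and its GC-corrected log2 ratio of -3.23 rests on that sparse end of the trend. Opposite-strand Ocel1, with 116 counts in replicate 2 and 25 in replicate 1, covers 54.4% of the exon bases of Nr2f6. The testicular receptors Nr2c1 (TR2) and Nr2c2 (TR4) were both detected, with 10.7 and 23.3 TPM in replicate 2 and 24.0 and 42.3 TPM in replicate 1. Nr2c2 led Nr2c1 by 2.19 in replicate 2 and by 1.77 in replicate 1. Nr6a1, the germ cell nuclear factor, was low in both, at 3.49 TPM in replicate 2 and 4.97 TPM in replicate 1.

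Transcripts within a gene offered a readout that the choice of genes did not use. Of 19 members with at least 2 annotated transcripts and 100 counts in each library, 16 had the same leading transcript in both. The exceptions were Pparg, Nr4a2 and Nr6a1. Pparg-201, which encodes the 505-residue form known as PPAR gamma 2 of fat cells, held 71.92% of the gene's TPM in replicate 2 and 38.51% in replicate 1. Pparg-202, which encodes the 475-residue gamma 1 form, held 28.08% in replicate 2 and 61.49% in replicate 1. The fat cell form was therefore the leading one in replicate 2 and the broadly expressed form in replicate 1, from 282 counts for the gene in replicate 2 and 261 in replicate 1.

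In Nr4a2 the leading entry of replicate 2 was Nr4a2-204, a transcript of 182 bases whose 39.74% share rested on 1 count. In replicate 1 the leading entry was Nr4a2-206, annotated as a target of nonsense-mediated decay, with 61.15% there and 8.95% in replicate 2. Nr4a2-203, which encodes 598 residues, held 33.14% in replicate 2 and 29.14% in replicate 1. Its share in replicate 2 is lowered by the 1-count entry. In counts, Nr4a2-203 had 109 of the gene's 191 in replicate 2 and 101 of 330 in replicate 1, so it was not similar in share by counts. Thra, with 53 counts in replicate 1, fell below the count limit. Its transcript Thra-201, which encodes the 492-residue alpha 2 form that does not bind hormone, held 63.83% in replicate 2, where Thra-202, encoding the 410-residue alpha 1 receptor, held 30.13%. In replicate 1 these shares were 13.97% and 13.69%, and the 535-base fragment Thra-208 held 66.60% of the gene's TPM from 14 counts, so the Thra level of replicate 1 rests mainly on that short entry.

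The transcripts of a gene were also ordered by GC content, by a limit chosen after the values were seen (transcripts with at least 10% share and 20 counts in either library). In 11 of 12 genes the most AT-rich of them held a smaller share in replicate 2 than in replicate 1, and Pparg was the exception. Rora-201, 10878 bases long and 40.9% GC, held 79.04% in replicate 2 and 97.22% in replicate 1, and the shorter Rora-202, at 50.8% GC, held 15.15% in replicate 2 and 1.47% in replicate 1. Nr3c1-204, the main glucocorticoid receptor transcript, held 80.87% in replicate 2 and 99.74% in replicate 1. Nr2f2-201, which encodes the whole 414-residue receptor, held 59.85% in replicate 2 and 84.39% in replicate 1, and Nr2f2-202, which encodes 281 residues, held the rest. Nr4a3-203 held 60.40% in replicate 2 and 99.69% in replicate 1. The same direction as between genes was thus seen among transcripts within most of these genes, as a description with no test. In Nr1h4, Nr3c2 and Nr4a2 the GC contents compared lay close together, at 46.6% and 47.2% in Nr1h4. In Rora, Nr1d2, Nr3c1 and Nr2f2 the AT-rich transcript was also much the longer, so GC content and length cannot be told apart there. Esrrg and Nr6a1 stood at 100% in replicate 1, so their share could not be higher in replicate 2. Nr3c1, Nr4a3, Nr1d2, Rora and Nr3c2 stood at 95.1% or more in replicate 1, which left little room for a higher share.

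**Figure D5:**
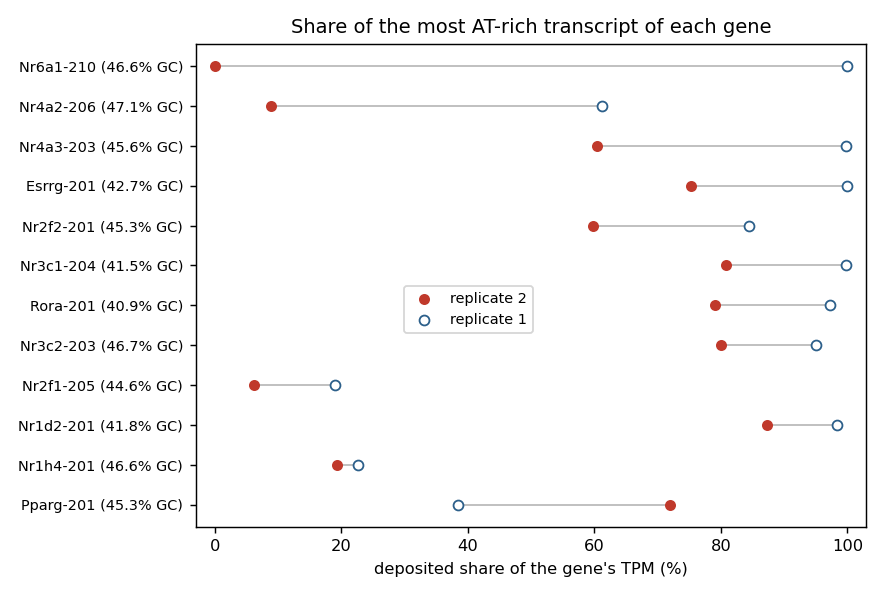
Share of the most AT-rich transcript in its gene's TPM, in percent as deposited, for 12 nuclear receptor genes in replicate 2 (filled red circles) and replicate 1 (open blue circles), with the GC content of each transcript in brackets. The share was lower in replicate 2 in 11 of the 12 genes, and higher in replicate 2 in Pparg.

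Receptors work through coregulators, and these were detected broadly. The counts in this list and those that follow stand beside the background of 36.5% of all tested genes higher and 27.8% lower, or 13.5% and 12.8% once the GC trend was removed. Of 11 coactivator genes tested 3 were called higher in replicate 2 and 1 lower, and the median log2 ratio was -0.46. Med1, the Mediator subunit that receptors contact, had 35.29 TPM in replicate 2 and 58.76 TPM in replicate 1, Ncoa6 had 23.88 TPM in replicate 2 and 55.05 TPM in replicate 1, and the acetyltransferase Ep300 had 31.36 TPM in replicate 2 and 46.25 TPM in replicate 1. None of these was called. The PGC-1 coactivators were low: Ppargc1a had 3.85 TPM in replicate 2 and 5.72 TPM in replicate 1 and was called lower at -1.04, and Ppargc1b had 3.03 TPM in replicate 2 and 0.17 TPM in replicate 1, from 81 counts in replicate 2 and 4 in replicate 1, and was called higher. No coactivator was called in either direction once the GC trend was removed.

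Of 11 corepressor genes 2 were higher and 5 were lower, with a median log2 ratio of -0.79. Ncor1, which binds receptors directly, had 154.27 TPM in replicate 2 and 264.27 TPM in replicate 1 and was not called. The histone deacetylase Hdac2 had 92.12 TPM in replicate 2 and 364.82 TPM in replicate 1, Tbl1x had 75.21 TPM in replicate 2 and 151.88 TPM in replicate 1, and Lcor had 7.04 TPM in replicate 2 and 21.84 TPM in replicate 1. Hdac2, Tbl1x and Lcor were called lower. With the GC trend removed 1 corepressor was higher and 1 was lower.

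Enzymes that make or clear ligands inside cells gave 2 higher and 2 lower of 9 tested, and the other 7 of the 16 listed had too few counts. Hsd11b1, which regenerates active glucocorticoid, had 92.26 TPM in replicate 2 and 105.35 TPM in replicate 1 and was not called. Aldh1a2, which makes retinoic acid, had 76.77 TPM in replicate 2 and 64.77 TPM in replicate 1, and Aldh1a1 had 35.66 TPM in replicate 2 and 77.69 TPM in replicate 1. The last was called lower, as was Dio2, which activates thyroid hormone, with 10.79 TPM in replicate 2 and 32.87 TPM in replicate 1. Cyp27a1, which makes 27-hydroxycholesterol, was called higher, with 9.51 TPM in replicate 2 and 1.83 TPM in replicate 1, and Dio1 had 0 counts in both libraries. Of the 9, 1 was called after removal of the GC trend, and it was lower.

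The chaperones that hold steroid receptors ready for ligand were abundant in both libraries. Hspa8 had 2795.81 TPM in replicate 2 and 2425.57 TPM in replicate 1, and Hsp90ab1 had 2146.51 TPM in replicate 2 and 2915.00 TPM in replicate 1. Hsp90aa1 had 606.21 TPM in replicate 2 and 3308.00 TPM in replicate 1 and was called lower, as was the co-chaperone Ptges3 (p23) with 146.16 TPM in replicate 2 and 585.13 TPM in replicate 1. The immunophilin Fkbp4 had 260.96 TPM in replicate 2 and 47.85 TPM in replicate 1 and was called higher, as was Dnajb1 with 80.89 TPM in replicate 2 and 34.58 TPM in replicate 1. Of the 11 genes 3 were higher and 4 were lower, and after removal of the GC trend none was higher and 1 was lower.

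Of 12 known targets of SF-1, 7 were called higher in replicate 2 and 1 lower, and the median log2 ratio was 2.15. The 3 targets with the highest mean over both libraries were not called. Hsd3b1 had 18061.16 TPM in replicate 2 and 16411.85 TPM in replicate 1, Star, which moves cholesterol into mitochondria, had 8744.43 TPM in replicate 2 and 11161.20 TPM in replicate 1, and Cyp11b1, the last enzyme of corticosterone synthesis, had 8441.38 TPM in replicate 2 and 10688.22 TPM in replicate 1. Cyp21a1, the steroid 21-hydroxylase, had 14814.23 TPM in replicate 2 and 554.49 TPM in replicate 1, which placed it second in replicate 2, and was the target with the largest ratio, at 4.73 on the log2 scale. The ACTH receptor gene Mc2r had 569.14 TPM in replicate 2 and 1402.28 TPM in replicate 1 and was called lower, and Inha, the lowest target, had 15.98 TPM in replicate 2 and 1.89 TPM in replicate 1 and was called higher. Hsd3b1, Star and Cyp11b1 are between 47.6% and 47.7% GC, and Cyp21a1 is 56.9% GC. After removal of the GC trend 6 were higher and 2 were lower, with a median of 0.97, and Nr0b1 is on this list as well as among the receptors.

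Of 14 targets of the PPAR and LXR receptors 5 were higher and 2 were lower, with a median log2 ratio of 0.47. Scd1, a fatty acid desaturase under LXR control, had 1017.91 TPM in replicate 2 and 2064.98 TPM in replicate 1 and was called lower. Acadm, of fatty acid oxidation, had 652.86 TPM in replicate 2 and 639.66 TPM in replicate 1. Plin2, a lipid droplet protein, had 440.67 TPM in replicate 2 and 72.65 TPM in replicate 1 and was called higher, and Srebf1 had 133.25 TPM in replicate 2 and 1.94 TPM in replicate 1, from 3610 counts in replicate 2 and 24 in replicate 1, with the largest ratio of the list. The lowest of the list, the cholesterol exporter Abcg1, had 7.79 TPM in replicate 2 and 4.80 TPM in replicate 1 and was not called. The GC correction left 3 higher and 1 lower.

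No family member had a near-identical copy elsewhere in the annotation, but 13 members share exon bases with another gene, 11 of them on the opposite strand. Beside the cases given above, Nr1i3 shares 74.9% of its exon bases with Tomm40l, which had 567 counts in replicate 2 and 93 in replicate 1, while Nr1i3 had 1 count in replicate 2 and 0 in replicate 1. Nr2c2 shares 30.7% with Mrps25, which had 503 counts in replicate 2 and 341 in replicate 1. The values of these members are uncertain to that extent.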

How the data were processed

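The members and lists were chosen with earlier results of these data known. Each table belonged to 1 library. The authors deposited expected counts per gene and transcript, estimated fragments that need not be whole. TPM and FPKM stand beside them per the file headers, as does the posterior mean TPM, treated here as a score. Transcript shares are deposited in percent. Per the deposited notes, reads were placed on mm10 with GENCODE M4; for the aligner and counting program the sources used here give no name. Rows that are no Ensembl gene held 0 counts and were left out.

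TPM was rescaled without the 37 mitochondrial genes and their 15 nuclear copies. Expected counts were rounded, genes summing to 20 or more kept, and library sizes scaled by TMM (edgeR 4.0.16, R 4.3.3). Per gene, the split of its sum between the libraries was tested by an exact binomial test (two-sided), with Benjamini-Hochberg adjustment over 14358 genes, and ratios carry a prior count of 0.5 unless stated. The test was checked on simulated data. GC and length trends were lowess curves (fraction 0.3) on GENCODE M21 transcripts. Intervals at 95% and the floor of 3 counts cover counting error only. All members could be named; in each partner list the 3 highest, the lowest and the called genes with the largest ratio each way are named, except 1 item that is not reported here. Alternatives were DESeq2 1.42.0 size factors, nuclear totals, other minima, folds, priors and detection limits. Zinc fingers were found by pattern in translated M21 coding sequences. The annotation releases of the tables and the reference differ.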

Additional observations from a re-analysis of the deposited data

How the results depend on the processing

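The 15 members higher in replicate 2 became 5, 6 and 5 with the trend of mean GC, of abundance-weighted GC, and of GC with length removed (in that order below), and the 12 lower members became 1 at a fold of at least 4. Other settings kept both counts within 1.5 times. Log2 ratios that changed sign in all 3 corrections were Rara (-1.02, -1.22, -0.98), Rarg (-1.47, -1.5, -1.57), Vdr (-0.56, -0.17, -0.36), Rxra (-1.0, -0.59, -0.75), Pparg (0.44, 0.29, 0.31), Nr1h4 (0.31, 0.25, 0.23), Rorb (0.57, 0.68, 0.84), Nr0b1 (-2.45, -2.41, -2.58) and Nr2f6 (-3.23, -3.17, -3.37). With weighted GC alone Ppara (-0.08), Nr4a1 (-0.33) and Nr2c1 (0.10) also did, with mean GC Nr2c2 (0.16), and with GC and length Nr2c2 (0.44) and Nr6a1 (0.10). Nr0b1 was at -0.05 with DESeq2 size factors and Nr2f1 at 0.08 with nuclear totals, a scaling that moves every ratio by 0.28. Nuclear totals ended the calls of Thrb (-0.84), Nr4a2 (-0.94), Nr4a3 (-0.96) and Nr2c1 (-0.91) and added Vdr (1.21) and Ppara (1.25), and DESeq2 size factors added Nr3c2 (-1.04). Of the 12 counts of called genes in the partner lists, 11, 10 and 11 moved by over 1.5 times in the 3 corrections, 10 at a fold of at least 4 and 3 with nuclear totals, where coactivators called lower became 0, ligand enzymes 1 and PPAR and LXR targets 0. The cause of these changes was not tested.

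The 30 detected members ranged from 31 to 36 when either library was left out, which leaves no comparison of libraries. The shared leading isoform became 8 of 8 at a minimum of 500 counts, since fewer members qualified. No paired analysis was possible because both libraries belong to 1 group. Few counts in replicate 1 limit the precision for Nr0b2 (3), Rxrg (4), Nr1h3 (8) and Nr1h2 (9).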
